A study of Brassica napus with 27 samples.

Results

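The comparison described here is that of *Brassica napus* leaves 2 h after treatment with halauxifen-methyl (Hal), an auxinic herbicide, with control leaves harvested at the same time. It contrasts 6 of the 27 libraries of the series, 3 of Hal and 3 of the control, and the spread used in the tests was estimated from all 27. Tested were the 46395 of 104573 genes whose FPKM (fragments per kilobase of gene length, scaled to library size) reached 1 in 3 or more of the 27 libraries. All plants were of the cultivar Visby, grew with 4 plants per pot at 15 °C and 12 h of light, and were treated at leaf stage BBCH11. Hal was pipetted in 5 drops per plant at a dose that the sample labels give as 0.5 µg per leaf. The series description gives the same numbers per microlitre and the study's methods give them per plant. The drop volume and the concentrations in these methods match the dose per plant, while the amount on a single leaf is uncertain. The control is called untreated in the sample labels, while the series description says that it received the solvent alone. Another group at 2 h received the auxinic herbicide picloram (Pic) at 2.4 µg per leaf by the same labels, and the same 3 treatments were harvested again at 48 and 96 h. The replicates are described as coming from different plant material, and no source used here says whether leaves of several plants were pooled.

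Auxin is read in the nucleus by F-box receptors that, with the hormone bound, mark Aux/IAA repressors for degradation. This frees auxin response factors to switch on early genes, among them the Aux/IAA genes themselves and SAUR genes, which promote cell expansion. Synthetic auxins such as Hal and Pic are bound by receptors of this family, in the case of Pic not by every member. They are broken down more slowly than the natural hormone, and ethylene and abscisic acid follow in the later phases of the herbicide response.

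Between 15909955 and 19692242 reads were counted on genes in the 6 libraries. Replicate 3 of Hal stood apart from the others. It had reads on 53523 genes with a total of 16823492 reads, whereas the other 5 libraries had reads on 59104 to 59970 genes. In this library 1138 genes had exactly 1 read, against 3411 to 3617 genes in the other 5, and 538 genes were at 0 although every other library had at least 5 reads (12 to 29 genes in the others). Its correlation with the other Hal libraries was 0.961 and 0.962 over log2(FPKM + 1), while Hal replicates 1 and 2 had 0.983 and the control libraries 0.982 to 0.983 among themselves. Hal and control libraries correlated at 0.940 to 0.952. Leaf markers (Rubisco small chains, chlorophyll a-b binding proteins, photosystem subunits, carbonic anhydrases) were present in all 6 libraries, and their summed FPKM was 115600 to 124200 in the control and 105900 to 111100 after Hal treatment. Of 69 tested leaf markers 20 were lower and 4 higher after Hal treatment, with 12 lower without replicate 3 of the control or replicate 1 of Hal. Seed markers were at a summed FPKM of 0 to 0.245 in the control and 0 to 0.156 after Hal treatment, with 1 of 18 such genes passing the filter.

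At 2 h after Hal treatment, 4697 genes were upregulated and 5298 genes were downregulated relative to the control, by limma on log2(FPKM + 1) at a two-sided p under 0.05 after Benjamini-Hochberg adjustment. These are 10.1% and 11.4% of the tested genes, the background against which each gene group is set below. The median size of the log2 fold change among these genes was 0.61, with a median standard error (SE) of 0.16 over all tested genes. Changes of 1 log2 unit or more were rarer: 631 genes (1.36%) rose and 956 genes (2.06%) fell by that much. A change of 2 log2 units or more was seen for 66 rises and 80 falls. Without replicate 3 of Hal, 4303 genes (9.27%) were up and 5224 genes (11.3%) were down. Of the genes called with all libraries, 3609 were also called up and 4279 also called down without it, and 0 changed sign. Groups that do not overlap were a condition for naming a gene by rank or as a changed member of a list, so this holds for the 72 genes named below by construction. The call of each of these 72 genes held with any library left out. Some eligible genes that are not named lost the call, such as the flavin monooxygenase gene that rose. In leaf samples of this kind, a lower level can come from fewer cells that express a gene or from less RNA per cell, which cannot be told apart.

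The largest rise among genes with a functional description was that of BnaC07g29960D, described as the two-component response regulator-like protein APRR5, which in *Arabidopsis thaliana* is a repressor within the circadian clock. It lies on chromosome C07 (scaffold LK031821, 524906 to 527631, minus strand, in the coordinates of the deposited table, whose genome build is not given in the sources used here). Its FPKM was 2.84, 2.93, and 2.51 in the 3 control libraries and 25.6, 25.2, and 22.8 after Hal treatment. The groups did not overlap, and the log2 fold change was 2.76 (SE 0.10, adjusted p = 3.26e-16 in limma). With single libraries left out it lay between 2.71 and 2.81.

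The basic endochitinase CHB4 gene BnaA03g20310D, of a family of enzymes that cleave chitin, followed with 0.885, 0.864, and 1.57 FPKM in the control and 8.44, 8.96, and 10.6 after Hal treatment. The nucleoside diphosphate kinase gene BnaCnng73880D, whose product balances the pools of nucleoside triphosphates, had 3.33, 4.79, and 4.36 FPKM in the control and 19.2, 20.1, and 27.3 after Hal treatment. Both rose in all 3 libraries, by log2 fold changes of 2.31 and 2.16.

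Auxin repressed protein 1, BnaC03g18820D on C03 (scaffold LK031818, 621912 to 622781, minus strand), rose although its name, taken from the description, refers to repression by auxin. It had 18.4, 15.8, and 16.9 FPKM in the control and 66.9, 67.1, and 78.2 after Hal treatment, a log2 fold change of 1.99 (SE 0.09, adjusted p = 8.84e-14). The glutamate decarboxylase gene BnaC06g27330D, for the enzyme that makes gamma-aminobutyric acid from glutamate, had 12.8, 10.3, and 11.5 FPKM in the control and 46.8, 44.3, and 39.96 after Hal treatment. Its log2 fold change was 1.84 (adjusted p = 2.96e-13).

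The other leading rises included genes that act on the cell wall and the cytoskeleton. The pectinesterase gene BnaA01g29470D, for an enzyme that removes methyl groups from wall pectin, had 19.4, 20.2, and 18.7 FPKM in the control and 74.1, 73.2, and 70.0 after Hal treatment (log2 fold change 1.85). The alpha-tubulin gene BnaCnng51680D, for a building block of microtubules, had 3.67, 3.81, and 4.48 FPKM in the control and 14.0, 15.3, and 15.6 after Hal treatment (log2 fold change 1.68). This tubulin gene was almost absent from the controls of 48 and 96 h, with means of 0.0964 and 0.0140 FPKM. After Hal treatment its means at these times were 9.72 and 26.7 FPKM. The beta-galactosidase gene BnaC01g37460D rose by a log2 fold change of 1.52 and the xyloglucan endotransglucosylase gene BnaCnng62600D, for an enzyme that cuts and rejoins wall xyloglucan, by 1.48. The remaining rises in this rank were those of a cysteine proteinase inhibitor (BnaC05g40690D, 1.68), the 40S ribosomal protein S24 (BnaC01g39840D, 1.87), and the subunit G of the vacuolar-type proton pump (BnaA01g13370D, 1.54). In the last of these genes the Hal libraries were spread widely, with 4.33, 5.92, and 8.12 FPKM against 1.38, 1.299, and 1.49 in the control. Its control means were 5.9 and 7.42 FPKM at 48 and 96 h, near its mean of 6.12 after Hal treatment at 2 h.

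The strongest fall was complete. BnaA09g54870D, described as the short isoform of a glycine-rich protein 3 (chromosome A09, scaffold LK032995, 31173 to 33453, minus strand), had 289, 319, and 333 FPKM in the control and 0 reads in every Hal library. Against a floor of 3 reads per library it was at least 1417-fold lower. With Pic its mean FPKM was 0.0227, from 1 read in all. In the other groups of the series its means were 332 and 225 FPKM in the controls of 48 and 96 h and 1176 and 1774 FPKM after Hal treatment at these times, and 257 and 1239 FPKM after Pic treatment. Only the groups harvested 2 h after an herbicide had no reads or nearly none.

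The cysteine synthase gene BnaC04g49280D on C04 (scaffold LK032143, 288021 to 290415, minus strand), for the enzyme that builds cysteine from sulfide, had 85.5, 81.8, and 85.4 FPKM in the control and 2.20, 2.19, and 3.80 after Hal treatment. The log2 fold change was -4.54 (SE 0.11, adjusted p = 1.06e-19). Pic gave a mean of 92.5 FPKM and a log2 fold change of 0.13 against the same controls. Levels of this gene also differed between control groups of the series, with means of 84.2, 76.6, and 204 FPKM at 2, 48, and 96 h.

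Non-specific lipid-transfer proteins, small proteins that bind lipids in the outer layers of the leaf, supplied 3 of the 12 largest falls. BnaA05g34760D had 13.2, 16.2, and 15.7 FPKM in the control and 0.443, 0.219, and 1.56 after Hal treatment (log2 fold change -3.27). For BnaC02g10050D and BnaA02g07120D the log2 fold changes were -2.21 and -2.09. In each of these genes all Hal libraries lay below all control libraries of 2 h. Mean FPKM in the controls of 48 and 96 h was 0.430 and 0.612 for BnaA05g34760D, 4.815 and 15.4 for BnaC02g10050D, and 10.3 and 52.1 for BnaA02g07120D.

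GATA transcription factor 15, BnaA01g32640D, had 15.3, 17.2, and 15.6 FPKM in the control and 2.38, 2.76, and 3.40 after Hal treatment (log2 fold change -2.15). A gene close by in the gene order, BnaA01g32660D for the 60S ribosomal protein L29, went from 198, 224, and 229 FPKM to 43.9, 47.2, and 73.85 (log2 fold change -1.997). The alkyl transferase gene BnaA10g29560D had a log2 fold change of -1.95 and the glycosyltransferase gene BnaC07g48390D one of -2.07. Small nucleolar RNA R16 (snoR16), of a class that guides the modification of ribosomal RNA, rested on 31 reads in the control and 5 reads after Hal treatment, all of the latter in replicate 1, and had a log2 fold change of -2.17 (adjusted p = 0.00414). Other genes of the table carry the same name, and the values are those of the copy on scaffold LK034557 (27028 to 27118).

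**Figure D1:**
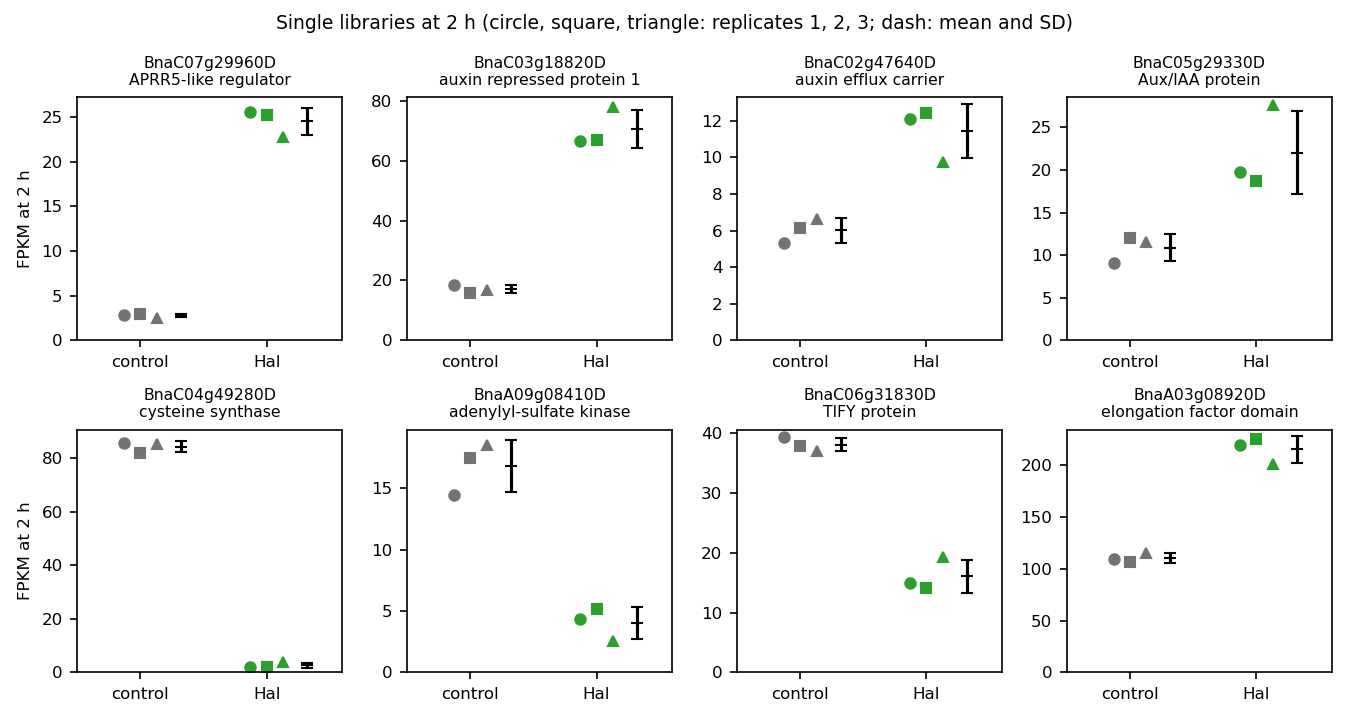
FPKM of 8 genes in each library at 2 h (vertical axes from 0, a scale of its own for each gene), control in grey and Hal in green, with circles, squares, and triangles for replicates 1, 2, and 3 and dashes with bars for the mean and SD (n = 3). In none of the 8 genes do the Hal libraries overlap with the control libraries, which was a condition for naming them. Replicate 3 of Hal (triangle) thus lies on the same side of the control as replicates 1 and 2 by construction.

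The Aux/IAA and SAUR lists held calls in both directions at this early time, the SAUR genes in shares close to the background. Of 62 tested Aux/IAA genes, which encode the repressors of auxin signalling, 10 rose (16.1%) and 9 fell (14.5%), and the median log2 fold change was 0.00, as for all tested genes. BnaC05g29330D had 9.02, 12.0, and 11.6 FPKM in the control and 19.8, 18.7, and 27.6 after Hal treatment (log2 fold change 0.95, adjusted p = 0.000169). In the opposite direction, BnaA09g50590D went from 31.8, 34.3, and 32.5 FPKM to 17.7, 19.7, and 22.0 (log2 fold change -0.71, adjusted p = 1.87e-05).

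BnaC05g47100D, a further Aux/IAA gene, rose by 0.69 and BnaC05g02370D fell by 0.75 on the log2 scale. The former lies among neighbours that were higher as a group, with a median log2 fold change of 0.29 in the surrounding 100 tested genes. Control means of BnaC05g47100D were 16.7 and 8.96 FPKM at 48 and 96 h, above its 5.43 after Hal treatment at 2 h. Without replicate 3 of Hal, 6 Aux/IAA genes were up and 9 down. With the 6 compared libraries fitted alone, 6 were up and 3 down, and with array weights 14 were down, so that these counts depend on the model. The 62 values lay between -0.75 and 0.95.

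SAUR genes, found here by their Auxin_inducible domain, behaved likewise, with 9 of 104 up (8.65%) and 11 down (10.6%), shares close to the background. BnaC02g07850D rose from 3.00, 2.93, and 3.28 FPKM to 10.4, 9.08, and 11.7 (log2 fold change 1.48), and BnaC02g44790D fell from 15.9, 14.0, and 14.5 to 5.08, 5.50, and 8.37 (log2 fold change -1.13). Control means of BnaC02g07850D were 16.9 and 2.45 FPKM at 48 and 96 h, the former above its level after Hal treatment at 2 h. This list depended on replicate 3 of Hal: without it 3 SAUR genes were up and 15 were down, and the median log2 fold change went from -0.03 to -0.14. With Pic, against the same control libraries, the median of the SAUR genes was 0.41.

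Auxin efflux carriers, the PIN-type proteins that move auxin out of cells, were the auxin list with the most uniform direction. Of 10 tested genes 6 rose and 0 fell, with a median log2 fold change of 0.50 (0.69 without replicate 3 of Hal, again with 6 up and 0 down). With single libraries left out, 4 to 6 of the carriers were up. BnaC02g47640D (C02, scaffold LK034356, 374 to 3437, minus strand) had 5.30, 6.13, and 6.65 FPKM in the control and 12.1, 12.4, and 9.76 after Hal treatment, a log2 fold change of 0.82 (adjusted p = 2.89e-05). BnaC06g24400D had 6.32, 8.01, and 8.72 FPKM in the control and 16.5, 16.5, and 14.1 after Hal treatment, a log2 fold change of 0.95 (adjusted p = 5e-05).

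Auxin response factors, the transcription factors that act on auxin target genes, hardly moved, with 2 of 34 up and 0 down. With replicate 3 of the control, replicate 2 of Hal, or replicate 3 of Hal left out, 1 was up, and without replicate 2 of the control 1 was down. Among genes for auxin synthesis, the 3 tryptophan synthases had log2 fold changes between -0.26 and 0.13, none of them past the threshold. Of 11 flavin monooxygenases, a family that includes auxin-forming enzymes, 1 rose and 2 fell, and the rise was lost with any library left out. The largest fall was that of BnaC09g13360D, with 11.7, 12.6, and 13.3 FPKM in the control and 5.21, 6.85, and 6.43 after Hal treatment (log2 fold change -0.92).

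Lists of the jasmonate pathway held falls and no rises. TIFY proteins include the JAZ repressors of jasmonate signalling, which in *A. thaliana* are themselves induced by the hormone. Of 42 tested TIFY genes 16 fell (38.1%) and 0 rose, and the median log2 fold change was -0.39. BnaC06g24560D had 7.42, 5.48, and 7.11 FPKM in the control and 0.605, 0.582, and 0.838 after Hal treatment (log2 fold change -2.19, adjusted p = 7.51e-09). BnaC06g31830D had 39.3, 37.8, and 37.1 FPKM in the control and 14.9, 14.1, and 19.2 after Hal treatment (log2 fold change -1.20). In the controls of 48 and 96 h, BnaC06g24560D had means of 0.388 and 0.386 FPKM, below its level after Hal treatment at 2 h, and BnaC06g31830D had means of 28.8 and 33.5. With Pic at 2 h the means of the 2 genes were 1.10 and 18.95 FPKM.

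Lipoxygenases, which start jasmonate synthesis from unsaturated fatty acids, and allene oxide cyclase went the same way, with 7 of 14 genes down and 0 up and a median of -0.40. BnaA07g38540D had 4.76, 5.75, and 5.77 FPKM in the control and 2.15, 2.04, and 2.10 after Hal treatment (log2 fold change -1.05). BnaA07g19600D went from 133, 134, and 133 FPKM to 89.9, 93.9, and 72.7 (log2 fold change -0.64, adjusted p = 0.00293). In the controls of 48 and 96 h, the means were 1.58 and 1.06 FPKM for BnaA07g38540D and 95.5 and 124 FPKM for BnaA07g19600D. Leaving out any of the 6 libraries left 16 to 17 TIFY genes and 5 to 7 of these enzymes down.

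The other hormone lists were mixed. Of 219 genes with an AP2 domain, a class that includes the ethylene response factors, 23 rose and 43 fell (19.6%). BnaA09g05710D had 6.33, 4.79, and 7.06 FPKM in the control and 16.8, 13.8, and 27.1 after Hal treatment (log2 fold change 1.48), and BnaC07g29050D went from 4.97, 5.996, and 5.17 to 1.42, 0.588, and 1.81 (log2 fold change -1.52). The 3 ethylene receptors had log2 fold changes between -0.21 and 0.33, with 1 up without replicate 3 of the control, and 1 of 11 genes with an EIN3 domain, found in ethylene-signalling factors, rose.

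Among protein phosphatases 2C, the class that holds the negative regulators of abscisic acid signalling, 22 of 169 rose (13.02%) and 28 fell (16.6%). The sharpest rise in the list was that of BnaCnng03290D, from 0.969, 1.15, and 1.49 FPKM to 11.6, 12.5, and 19.1 (log2 fold change 2.78, adjusted p = 6.44e-11). BnaA03g00600D followed, from 6.12, 5.65, and 5.33 FPKM to 17.9, 17.0, and 17.4 (log2 fold change 1.46), although its 100 neighbouring genes had a median log2 fold change of -0.24. Of 14 carotenoid oxygenases with an RPE65 domain, a family that includes the enzymes of the committed step to abscisic acid, 2 rose and 1 fell.

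Lists that hold regulators of light, clock, and cytokinin responses changed in both directions. Among 73 genes with a response regulator domain, which occurs in cytokinin signalling and in the clock, 18 rose (24.7%) and 9 fell (12.3%), and 11 of the rises and 4 of the falls amounted to 1 log2 unit or more. After the APRR5 gene, BnaA06g26980D changed most clearly, from 3.23, 3.42, and 2.59 FPKM to 21.5, 22.3, and 24.6 (log2 fold change 2.55, adjusted p = 2.24e-14).

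The CCT domain is shared by clock and flowering regulators of the CONSTANS and pseudo-response regulator families. The APRR5 gene BnaC07g29960D is in both lists. Of 67 genes that carry the domain, 22 rose (32.8%) and 14 fell (20.9%). BnaC05g04870D was near the limit of detection in the control, with 0.448, 0.583, and 0.207 FPKM, and had 6.37, 5.85, and 6.18 after Hal treatment (log2 fold change 2.34). A change of 1 log2 unit or more was reached by 12 of the rises and 0 of the falls. A smaller change in the opposite direction was seen for BnaA06g27360D, from 109, 120, and 115 FPKM to 81.7, 89.8, and 86.1 (log2 fold change -0.41, adjusted p = 0.000104).

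B-box proteins, zinc-finger regulators that act in light signalling, fell more often than they rose, with 13 of 29 down (44.8%), 1 up, and a median log2 fold change of -0.30. BnaC04g42410D had 35.9, 36.9, and 32.6 FPKM in the control and 19.9, 17.9, and 23.4 after Hal treatment (log2 fold change -0.76, adjusted p = 2.85e-07). BnaCnng30730D went from 14.1, 13.8, and 13.7 FPKM to 6.52, 7.14, and 7.62 (log2 fold change -0.88). The hour of the day at which each group was harvested is not given in the sources used here.

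Several groups of protein synthesis genes held rises and hardly any falls. Of 57 aminoacyl-tRNA ligase genes, whose products load amino acids onto tRNA, 26 rose (45.6%) and 0 fell, with a median log2 fold change of 0.31. BnaC03g66410D had 4.50, 3.86, and 4.97 FPKM in the control and 7.86, 7.51, and 7.24 after Hal treatment (log2 fold change 0.65, adjusted p = 0.000109). BnaA01g03230D had 2.57, 3.05, and 3.88 FPKM in the control and 7.19, 5.75, and 6.11 after Hal treatment (log2 fold change 0.83).

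DEAD box helicases, which unwind RNA during ribosome assembly, splicing, and initiation of translation, had 43 of 138 genes up (31.2%) and 1 down, with a median of 0.25. In this list BnaC06g31150D rose from 5.47, 6.52, and 6.10 FPKM to 13.4, 11.6, and 11.8 (log2 fold change 0.92) and BnaCnng20150D from 2.68, 2.89, and 2.56 to 7.51, 10.0, and 6.55 (log2 fold change 1.27). Initiation factors had 8 of 49 genes up and 1 down, and nucleolar and rRNA processing proteins had 5 of 17 up and 0 down. The first of these counts was 5 without replicate 1 or replicate 3 of the control, and the second was 3 without replicate 2 or 3 of the control or replicate 2 or 3 of Hal.

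Genes with the GTP_EFTU domain of translation elongation factors, a list chosen after values were seen, had 33 of 80 members up (41.3%) and 0 down. Without replicate 2 of Hal the number was 21. BnaA03g08920D in this list went from 109, 107, and 115 FPKM to 219, 225, and 200.7 (log2 fold change 0.96, adjusted p = 3.07e-05). Cytosolic ribosomal proteins were divided, with 22 of 118 up (18.6%), 9 down (7.63%), and a median of 0.04. Without replicate 3 of Hal, 17 were up and 10 down, and the sign of the median turned (-0.06). With array weights 20 of the ribosomal protein genes were down. The medians of the tRNA ligases and the DEAD box helicases were 0.03 and -0.03 with Pic at 2 h, against the same controls, and -0.43 and -0.31 after Hal treatment at 48 h, against the controls of that time.

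Tubulin genes, also listed after values were seen, had 23 of 59 members up (38.98%) and 0 down, with a median of 0.23. BnaA10g15410D, for example, rose from 30.7, 33.1, and 29.7 FPKM to 59.8, 66.1, and 56.9 (log2 fold change 0.94). Histones and B-type cyclins, taken as markers of dividing cells, did not share this direction, with 6 of 86 up and 15 down (3 up without replicate 1 of the control, 8 down without replicate 1 of Hal). Their summed FPKM was 2614 to 2861 in the control and 2474 to 3027 after Hal treatment, which overlapped.

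**Figure D2:**
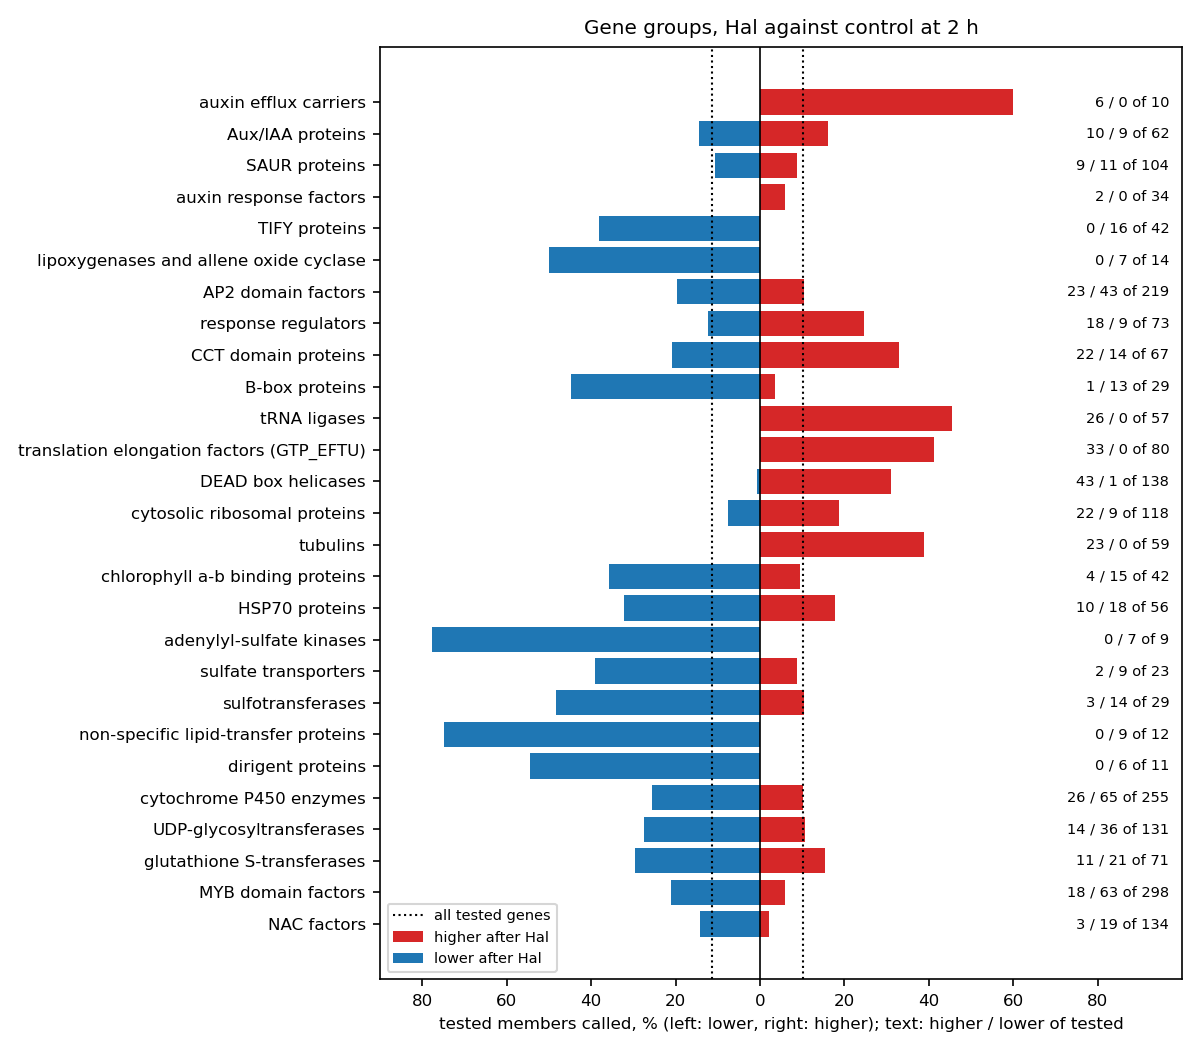
Share of the tested members of 27 gene groups that were called higher (red, to the right) or lower (blue, to the left) after Hal treatment at 2 h, in percent, with the counts at the right margin and dotted lines at the shares among all tested genes (10.1% and 11.4%). Bars of tRNA ligases, elongation factors, DEAD box helicases, tubulins, and efflux carriers lie to the right, and those of TIFY proteins, B-box proteins, and sulfur and lipid-transfer genes to the left. The 27 groups are a selection of the lists. Elongation factors, tubulins, the sulfur groups, lipid-transfer proteins, and dirigent proteins were listed after values were seen, so their distance from the dotted lines is no test.

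Falls were frequent in several steps of sulfur metabolism, in lists that were all chosen after values were seen. Adenylyl-sulfate kinases, which make the activated sulfate used by sulfotransferases, had 7 of 9 genes down (77.8%) and 0 up, with a median log2 fold change of -0.86. BnaA09g08410D (A09, scaffold LK032395, 141709 to 143303, plus strand) had 14.5, 17.5, and 18.6 FPKM in the control and 4.32, 5.15, and 2.59 after Hal treatment, a log2 fold change of -1.86 (adjusted p = 2.18e-09). With single libraries left out, 6 to 8 of the 9 kinases were down.

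Sulfotransferases, a family whose members transfer that sulfate to glucosinolates and other small molecules, had 14 of 29 genes down (48.3%) and 3 up, with 1 up without replicate 3 of Hal. BnaC06g35000D had 7.64, 6.21, and 6.90 FPKM in the control and 0.717, 1.23, and 0.918 after Hal treatment (log2 fold change -2.02), and BnaAnng27200D went from 22.3, 24.0, and 25.1 to 7.35, 6.21, and 8.93 (log2 fold change -1.56). The mean of BnaC06g35000D was 0.369 and 1.497 FPKM in the controls of 48 and 96 h. A further member, BnaC02g35140D, had 183 reads in the 3 control libraries and 1 read in the 3 Hal libraries.

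Sulfate transporters had 9 of 23 genes down (39.1%) and 2 up. Without replicate 3 of the control 0 were up, and without replicate 2 of Hal 1 was up. BnaA10g22050D in this list had 8.92, 7.999, and 7.16 FPKM in the control and 3.46, 2.88, and 4.15 after Hal treatment (log2 fold change -1.01). Of 11 thioredoxins, small redox proteins, 5 fell and 1 rose, with 3 down without replicate 2 of the control or replicate 2 of Hal and 0 up with any library left out. BnaA08g04320D fell from 10.7, 12.1, and 11.4 FPKM to 3.78, 2.54, and 3.15 (log2 fold change -1.59), while with Pic the log2 fold change of this gene against the same controls was 2.20.

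Gene groups of the leaf surface and of phenolic compounds, likewise listed after values were seen, held many falls as well. Lipid-transfer proteins had 9 of 12 members down (75.0%), 0 up, and a median of -0.82. Dirigent proteins, which guide the coupling of lignan precursors, had 6 of 11 down (54.5%) and 0 up. The chalcone synthase type domain was carried by 8 genes, of which 5 fell and 1 rose. The rise was lost without any of replicates 1 to 3 of the control or replicates 1 and 3 of Hal. Of 25 genes with a strictosidine synthase domain 10 fell, or 6 without replicate 3 of the control or replicate 1 of Hal, and 0 rose.

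Enzymes that modify foreign and internal small molecules were lower more often than higher. Cytochrome P450 enzymes had 65 of 255 genes down (25.5%) and 26 up (10.2%), and UDP-glycosyltransferases had 36 of 131 down (27.5%) and 14 up (10.7%). The P450 gene BnaA03g57690D fell from 20.9, 21.1, and 22.8 FPKM to 1.67, 1.96, and 3.06 (log2 fold change -2.83, adjusted p = 1.01e-14), and BnaA01g12380D rose from 6.66, 5.53, and 6.40 to 15.4, 17.1, and 19.5 (log2 fold change 1.35).

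Glutathione S-transferases, which attach glutathione to reactive compounds, had 21 of 71 genes down (29.6%) and 11 up (15.5%). BnaC02g24980D had 9.62, 9.88, and 11.5 FPKM in the control and 0, 0, and 0.278 after Hal treatment, from 560 and 5 reads. Its mean was 7.18 FPKM with Pic at 2 h and 0 FPKM after Hal treatment at 48 h. ABC transporters had 22 of 164 genes up (13 without replicate 1 of the control) and 17 down, and MATE transporters had 3 of 87 up and 14 down (16.1%).

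Genes that act on the cell wall were split. Pectin enzymes had 11 of 71 up and 22 down (31.0%), and xyloglucan endotransglucosylases had 7 of 31 up (4 without replicate 3 of Hal) and 10 down. BnaA10g11500D of the latter fell from 7.70, 7.16, and 9.49 FPKM to 1.35, 2.94, and 3.23 (log2 fold change -1.42), and its log2 fold change with Pic against the same controls was 0.84. Its means in the controls of 48 and 96 h were 0.848 and 0.544 FPKM. Expansins, which loosen the wall during growth, had 12 of 33 down (36.4%) and 2 up. The most clearly changed of them, BnaCnng51340D, went from 36.7, 39.9, and 40.5 FPKM to 17.0, 20.46, and 19.4 (log2 fold change -1.01).

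In photosynthesis, 15 of 42 chlorophyll a-b binding proteins fell (35.7%) and 4 rose, with 8 down without replicate 3 of the control and 9 without replicate 1 of Hal. BnaAnng22920D, of the light-harvesting antenna, went from 2520, 2520, and 2723 FPKM to 818, 881, and 856 (log2 fold change -1.60, adjusted p = 4.1e-13). Another gene of the same description, BnaC02g44590D, rose from 81.02, 72.8, and 80.1 FPKM to 183, 185, and 190 (log2 fold change 1.25). In the controls of 48 and 96 h its means were 218 and 440 FPKM. Of 10 Rubisco small chains 1 fell, and 0 rose. Beta-amylases, which release maltose from starch, had 5 of 17 down and 0 up, led by BnaC09g21440D, which went from 27.2, 27.8, and 27.4 FPKM to 14.0, 14.4, and 15.5 (log2 fold change -0.86).

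WRKY factors, many of which act in defence, had 7 of 119 genes up and 12 down. Of these rises, 4 were left without replicate 1 or replicate 3 of the control and 3 without replicate 3 of Hal. Disease resistance proteins with NB-ARC or TIR domains had 7 of 132 up and 12 down (7 down without replicate 1 of the control), and heat shock factors had 3 of 38 up and 2 down (5 up without replicate 2 and 4 down without replicate 3 of Hal). HSP70 chaperones had 18 of 56 genes down (32.1%) and 10 up (17.9%), among them BnaA10g27060D, which fell from 32.4, 31.97, and 33.9 FPKM to 10.7, 8.96, and 9.26 (log2 fold change -1.67). BnaC02g25950D, with a DnaJ domain of the HSP70 partner proteins, rose from 21.4, 24.5, and 21.2 FPKM to 89.5, 81.7, and 134 (log2 fold change 2.10).

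Genes of the MYB transcription factor family fell more often than they rose, whereas falls of NAC factors were near the share among all tested genes (11.4%). Of 298 genes with a MYB domain 63 were down (21.1%) and 18 up (6.04%), and of 134 NAC genes 19 were down (14.2%) and 3 up (2.24%). The number of MYB rises was 8 without replicate 1 or 3 of the control, 10 without its replicate 2, and 11 without replicate 2 of Hal. NAC rises were 6 with a pseudocount of 0.1 and 9 with array weights, and NAC falls 12 with the filter at FPKM of 5. BnaAnng06640D with a MYB domain fell from 15.6, 15.3, and 17.0 FPKM to 2.94, 3.496, and 2.67 (log2 fold change -2.08), and BnaAnng24480D with a Dof domain from 13.1, 15.6, and 13.2 to 4.28, 4.06, and 3.31 (log2 fold change -1.62).

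Among the factors that rose were genes of the HD-ZIP and bZIP classes. BnaA06g40090D with an HD-ZIP domain had 4.18, 3.72, and 3.44 FPKM in the control and 12.4, 11.9, and 10.9 after Hal treatment (log2 fold change 1.41), and BnaC07g20160D with the same domain had a log2 fold change of 1.39. The bZIP gene BnaC02g39310D rose from 5.47, 5.12, and 5.79 FPKM to 20.1, 17.7, and 16.8 (log2 fold change 1.57). Homeobox factors as a list had 9 of 68 up and 11 down (7 without replicate 3 of the control or replicate 1 of Hal), and bZIP factors 15 of 137 up and 20 down (11 to 13 down without replicate 2 or 3 of the control or replicate 1 or 2 of Hal). BnaC03g03480D with a TCP domain, found in regulators of leaf growth, fell from 26.2, 27.1, and 23.3 FPKM to 16.6, 17.5, and 14.6, a log2 fold change of -0.62, and its log2 fold change with Pic was 0.70.

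Some changes followed the position of genes on the chromosomes. *B. napus* carries the A and the C genome, and the tested genes with a place on a chromosome were put in the order of their names and read in 795 overlapping windows of 100 genes. For 90% of the windows the median log2 fold change lay between -0.12 and 0.12. In the window at the start of C03, from BnaC03g00010D to BnaC03g02240D, 79 of 100 genes were up and 1 was down, and the median log2 fold change was 0.80. At the start of C02, from BnaC02g00010D to BnaC02g02020D, 58 genes were up and 1 was down, with a median of 0.56 (0.555 before rounding). The lowest window, on A07 from BnaA07g21230D to BnaA07g23070D, had 40 genes down, 4 up, and a median of -0.35.

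These shifts were alike in the replicates of a group. Set against the mean of the 9 groups of the series, the C03 window lay at -0.589, -0.558, and -0.591 on the log2 scale in the control libraries and at 0.267, 0.201, and 0.212 in the Hal libraries. The control groups of 48 and 96 h were at -0.005 and -0.438 in this window and the Pic group of 2 h at 0.244. Control groups of different harvest times thus differed there as well, without herbicide. Whether the plants of the groups differed in these chromosome segments was not tested, and reads shared between A and C copies of a gene may be divided in a way not given in the sources used here.

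Outside the 1515 genes whose surrounding window had a median of more than 0.2 in size, 4353 of 44880 genes were up (9.7%) and 5018 were down (11.2%). Genes without a place on a chromosome (5253 tested genes) counted as outside, although their surroundings could not be read. All 26 tRNA ligases, 40 of the 43 DEAD box helicases, 6 of the 6 efflux carriers, and 14 of the 16 TIFY genes lay outside such windows. Of the 18 MYB genes that rose, 11 did. By chromosome, C02 had the highest share of rises (19.3%) and A02 the highest share of falls (18.8%).

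**Figure D3:**
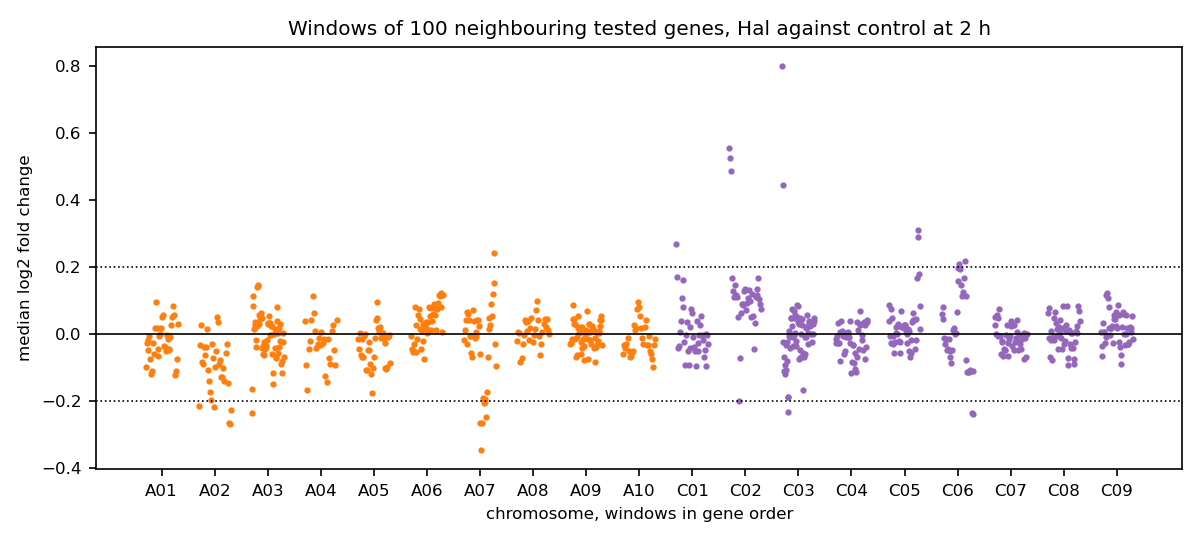
Median log2 fold change of Hal against control at 2 h (vertical axis) in windows of 100 neighbouring tested genes, in gene order along each chromosome (horizontal axis; A genome in orange, C genome in purple), with dotted lines at -0.2 and 0.2. Most windows lie near 0, and the starts of C02 and C03 reach 0.56 and 0.80.

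A set of 17 genes had at least 50 reads in each control library and at most 3 reads over the 3 Hal libraries, and 4 genes showed the reverse. Of the 17, the glycine-rich protein gene and the sulfotransferase gene BnaC02g35140D are the ones with a functional description. Of the 4 genes that were off in the control, BnaA04g23250D has a heat shock factor domain, with 1 read in the control, 223 reads after Hal treatment, and 20 reads with Pic.

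Set directly against Pic at 2 h, 9408 genes differed (20.3% of the tested genes), 4194 of them higher and 5214 lower with Hal, in limma with the same threshold. The doses on the leaf differed, so that this is a contrast of the treatments as applied. The APRR5 gene BnaC07g29960D was higher with Hal than with Pic by 1.06 on the log2 scale (adjusted p = 1.4e-08 in limma), and the glutamate decarboxylase gene BnaC06g27330D by 1.24 (adjusted p = 4.2e-10). The Aux/IAA gene BnaC05g29330D was lower with Hal by a log2 difference of -0.66 (adjusted p = 0.0054), and so were both HD-ZIP genes, BnaA06g40090D by -0.99 and BnaC07g20160D by -1.43. For auxin repressed protein 1 (BnaC03g18820D) the difference was 0.16 (95% confidence interval -0.03 to 0.35), for the pectinesterase gene BnaA01g29470D it was 0.08 (95% confidence interval -0.09 to 0.24), and for the tubulin gene BnaCnng51680D it was -0.01 (95% confidence interval -0.23 to 0.21), none of them past the threshold.

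The change after Hal treatment at 2 h was also tested against the change at 48 h, each relative to the control of its own time. It differed for 17223 genes (37.1%). The deposited FPKM were scaled differently in Hal and control libraries of 48 h, and this count is not given for equal totals of reads. At 48 h the median log2 fold change was 0.98 for the Aux/IAA genes and 1.66 for the efflux carriers, against 0.00 and 0.50 at 2 h. For cytosolic ribosomal proteins it was -1.58 at 48 h (-1.575 before rounding) and 0.04 at 2 h (-0.06 without replicate 3 of Hal). Of the 72 genes named in this text, 56 had a change at 2 h that differed from that at 48 h.

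**Figure D4:**
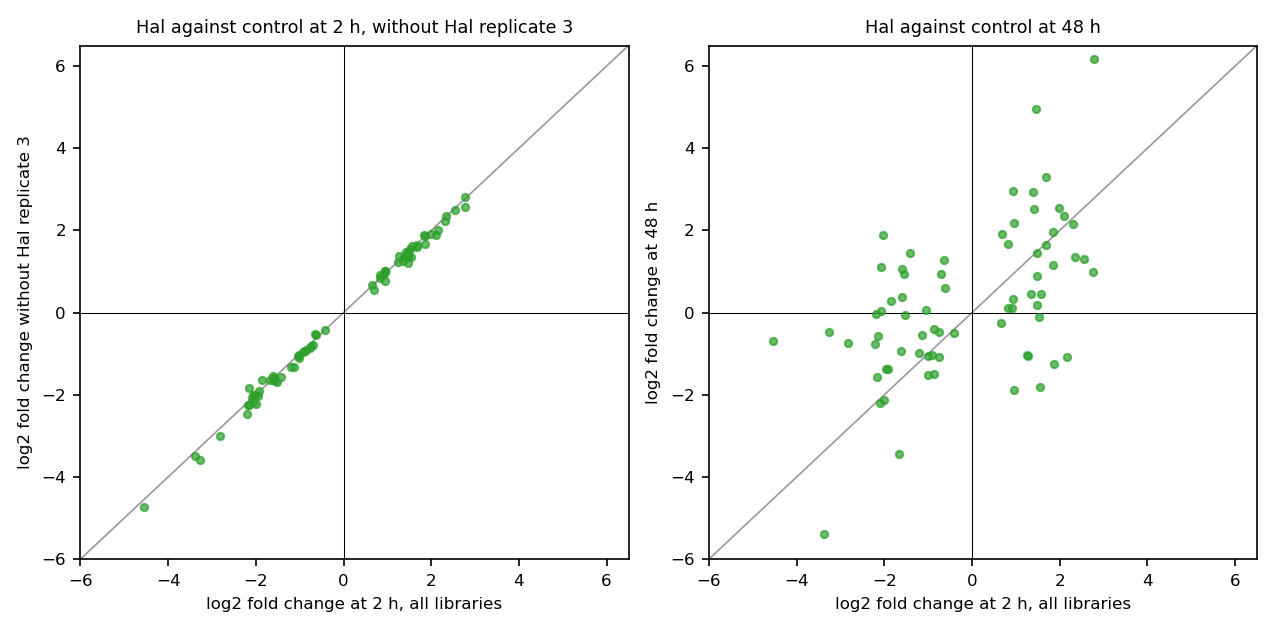
Log2 fold change at 2 h with all libraries (horizontal axes) against the same without replicate 3 of Hal (left) and against the log2 fold change after Hal treatment at 48 h (right), for 71 of the 72 named genes, without the glycine-rich protein gene at 0 reads. Grey diagonals mark equal values: the points lie along the line on the left and spread widely around it on the right.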

How the data were processed

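Leaf RNA of *B. napus* was sequenced from 27 libraries (9 groups of 3), of which 6 are compared here. The authors deposited FPKM values for 104573 genes, with places, lengths, descriptions, and domains. The submitters' processing notes name CASAVA, HISAT2, StringTie, DESeq2, edgeR, and GATK, and the genome build and the counting of shared reads are not given in the sources used here. FPKM times gene length gave whole reads for 100% of the values in every library (tolerance 0.1 reads), and these totals are the depths. The scaling factor behind the FPKM was 1.06 to 1.12 times this total in the 6 libraries. It was 0.81 to 0.87 times the total in the controls of 48 h and 1.10 to 1.13 times after Hal treatment at 48 h. Genes with FPKM of at least 1 in at least 3 libraries were tested on log2(FPKM + 1), a scale on which the change of low genes is understated, in limma 3.58.1 (R 4.3.3) with 9 groups, a variance trend, and Benjamini-Hochberg adjustment at 0.05, two-sided. Floors and reads cover counting error only. The p-values measure the spread between libraries of the same group, pooled over the 9 groups of all 27 libraries. The model was tested on simulated data.

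The members and gene lists were chosen with earlier results of these data known. Lists came from words of descriptions and from domains, and those for sulfur, leaf surface, phenolic compounds, tubulins, elongation factors, and importins were formed after values were seen. Named by rank are the 12 largest rises and falls among called genes with a description, groups that do not overlap, and a mean FPKM of at least 5 in the higher group. From a list, up to 2 called genes in each direction with the smallest p were eligible, and in lists of up to 8 members every member, also genes off in a group (at most 3 reads) with at least 50 reads in each library of the other. Of the eligible genes, 72 are named, and all of these kept the call with any library left out, unlike some that are not named. BnaA04g23250D was chosen after its values were seen. Sequences, promoters, and GH3 genes were not analysed here. Alternatives were a pseudocount of 0.1, no filter, a filter at FPKM of 5, equal totals, median-ratio scaling, the 6 libraries alone, the replicate number as a block, array weights, voom on the worked-back reads, a log2 fold change of at least 1, each library left out, and, chosen after seeing the data, only genes outside shifted windows.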

Additional observations from a re-analysis of the deposited data

Results flagged for a closer look

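For 56 of the 72 named genes, the change after Hal treatment at 2 h differed from that at 48 h in limma (adjusted p under 0.05 for the interaction of treatment and time). All values here are the log2 fold change at 2 h minus that at 48 h, so that a gene which rose at 2 h and has a positive value rose more at 2 h.

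Among the leading rises, the difference was 1.77 for BnaC07g29960D, 3.25 for BnaCnng73880D, -0.55 for BnaC03g18820D, 3.12 for BnaC01g39840D, 0.69 for BnaC06g27330D, -1.61 for BnaCnng51680D, 3.34 for BnaA01g13370D, and 1.63 for BnaC01g37460D. Among the leading falls it was -10.12 for BnaA09g54870D, -3.86 for BnaC04g49280D, -2.80 for BnaA05g34760D, -1.44 for BnaC02g10050D, -1.59 for BnaA01g32640D, -2.11 for BnaC07g48390D, -3.92 for BnaC06g35000D, -0.58 for BnaA10g29560D, and -2.14 for BnaA09g08410D. At 48 h BnaA09g54870D and BnaC06g35000D were higher than in the control of that time (log2 fold changes 1.83 and 1.90), and BnaC07g48390D and BnaA09g08410D had values of 0.04 and 0.28 that did not pass the threshold. The Aux/IAA genes and efflux carriers had values of -2.02 for BnaC05g29330D, -1.23 for BnaC05g47100D, -1.65 for BnaA09g50590D, -0.85 for BnaC02g47640D, and -1.23 for BnaC06g24400D. The Aux/IAA genes and carriers that rose at 2 h rose more at 48 h. In the jasmonate lists it was -2.15 for BnaC06g24560D, -1.11 for BnaA07g38540D, and -1.92 for BnaA07g19600D. For phosphatases 2C and HD-ZIP genes it was -3.39 for BnaCnng03290D, -3.50 for BnaA03g00600D, -1.10 for BnaA06g40090D, and -1.54 for BnaC07g20160D. Genes of the response regulator, CCT, and B-box lists had 1.25 for BnaA06g26980D, 1.00 for BnaC05g04870D, 0.31 for BnaC04g42410D, and 0.63 for BnaCnng30730D. The first pair of these rose more at 2 h, whereas the B-box genes BnaC04g42410D and BnaCnng30730D fell more at 48 h. Genes of protein synthesis and the tubulin gene from that list had 0.92 for BnaC03g66410D, 0.72 for BnaA01g03230D, 0.80 for BnaC06g31150D, 2.33 for BnaCnng20150D, 2.84 for BnaA03g08920D, and 0.60 for BnaA10g15410D. All genes of protein synthesis named here were higher relative to their control at 2 h than at 48 h. For chaperone and antenna genes the values were 1.77 for BnaA10g27060D, -1.97 for BnaAnng22920D, and 2.29 for BnaC02g44590D. In sulfur and detoxification lists they were -2.49 for BnaAnng27200D, -2.65 for BnaA08g04320D, 0.52 for BnaA10g22050D, 2.00 for BnaC02g24980D, -2.10 for BnaA03g57690D, and 0.90 for BnaA01g12380D. For the remaining genes of the wall, starch, and transcription lists they were -2.87 for BnaA10g11500D, -0.46 for BnaC09g21440D, -3.18 for BnaAnng06640D, -0.70 for BnaAnng24480D, 1.11 for BnaC02g39310D, -1.47 for BnaC07g29050D, 1.298 for BnaA09g05710D, and -1.23 for BnaC03g03480D.

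The value of BnaA09g54870D rests on libraries without reads and depends on the pseudocount. That of BnaCnng51680D rests on control libraries of 48 h with a mean of 0.0964 FPKM.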

How the results depend on the processing

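The number of genes called after Hal treatment at 2 h, 9995, was 7207 to 13850 under the other scalings, filters, models, and leave-outs, and 7553 to 9527 with single libraries left out. The lowest number, 7207, came from the fit of the 6 compared libraries alone. A required log2 fold change of at least 1, a stricter rule by construction, left 1587 genes, 631 up and 956 down. The same rule left 1643 genes for Hal against Pic and 7762 for the change at 2 h against that at 48 h. Residuals of libraries with the same number correlated at 0.040, 0.0078, and 0.033, and each Hal library correlated best with the control of its own number. These low values do not settle whether the numbers pair the libraries, and the main fit took them as unpaired. With the replicate block 9008, 8480, and 16306 genes were called in the 3 comparisons. For the 72 named genes, all 1078 values under the other scalings, filters, and models, the replicate block, and single libraries left out (2 genes did not pass the filter at FPKM of 5) kept their direction and their side of the threshold. Eligible genes that lost the call with a library left out are not among the 72, so this does not describe all called genes. The fold rule and the restriction to genes outside shifted windows were applied to counts only. List counts moved by more than 1.5 times in 260 of 2272 cases. With the filter at FPKM of 5, the falls were 10 for TIFY genes, 3 for lipoxygenases and allene oxide cyclase, 5 for sulfotransferases, and 3 for adenylyl-sulfate kinases, since fewer members were tested. Counts of 1 to 3 genes in a list often changed when a library was left out. Promoter motifs could not be examined. Depth limits genes near 1 FPKM. The low number of genes with reads in replicate 3 of Hal went with a total of 16823492 reads, above the 15909955 of replicate 1.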

Other observations

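Importin alpha genes, which carry proteins into the nucleus and were listed after values were seen, had 5 of 9 members up and 0 down, with a median log2 fold change of 0.35 (3 up without replicate 1 of Hal). Genes with a bHLH domain had 25 of 179 members down and 6 up (2 up without replicate 1 of the control). GRAS factors, a class that includes the DELLA repressors of growth, had 2 of 64 up and 2 down. LOG-type enzymes, which release active cytokinin, had 1 of 4 down, and phytochromes had 1 of 4 up. Of 8 SWEET sugar transporters 1 rose and 1 fell, and of 6 trehalose phosphatases 1 rose and 1 fell.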
